A study of Mus musculus with 4 samples.

Results

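The genes described here are the cytosolic ribosomal protein genes of the mouse, followed through 4 single-cell RNA libraries of sorted intestinal epithelium. Members were taken by symbol: every feature beginning with Rpl or Rps and a digit, plus Rplp0, Rplp1, Rplp2 and Rpsa, without the 9 pseudogene features marked -ps and without the 10 Rps6k kinase genes. This gave 86 of 31054 features. Of these, 77 were core members (46 of the large subunit and 31 of the small subunit), 8 were paralogs (Rpl3l, Rpl7l1, Rpl10l, Rpl22l1, Rpl36al, Rpl39l, Rps27l and Rps27rt), and 1, Rps19bp1, matches the symbol pattern but is not a ribosomal protein. All libraries came from mice of genotype Bmi1-GFP, a reporter for transcription of the Bmi1 locus, with 1 library for each group: fetal gut of embryonic day 12.5 (E12.5) and of embryonic day 17.5 (E17.5), gut of untreated adults, and gut of irradiated adults. Radiation dose, interval to sampling, number and sex of animals and sorting gates are not in the labels. With 1 library a group there is no replicate, so no test between groups was run, and every interval below is a 95% interval that covers counting error only.

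The cytosolic ribosome makes the cell's proteins. Its small subunit reads the mRNA, its large subunit joins amino acids, and the stalk proteins Rplp0, Rplp1 and Rplp2 on the large subunit recruit the elongation factors. Most of these proteins are needed once in each ribosome, so their mRNAs are usually made in step, are among the most abundant in growing cells, and often take a smaller share of the RNA in cells that have stopped dividing. Their mRNAs typically begin with a run of pyrimidines, the 5' terminal oligopyrimidine tract, through which mTOR signalling and Larp1 control their translation.

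Counts are UMIs, the barcoded tags that let each captured RNA molecule be counted once. Barcodes with 500 genes or more and no more than 20% of mitochondrial UMIs were used after removal of putative doublets, which left 15087 of 22731 barcodes: 4050 and 4409 cells for the embryonic libraries of E12.5 and E17.5, and 3597 and 3031 for the untreated and irradiated adult. Wherever 4 values stand in a row below, they follow that order. The kept cells held from 29808886 UMIs (adult) to 82154356 UMIs (E12.5), and the median cell had from 3607 UMIs (adult) to 18082 UMIs (E12.5). Between 6 and 12 barcodes were shared by any pair of libraries, of which at most 6 were kept cells in both. The libraries also differed in what they contained: 0 of 17 enteroendocrine markers reached 50 counts per 1000000 UMIs (CPM) at E12.5 against 14 at E17.5 and 16 in each adult library, and 9 of 12 pancreatic acinar markers reached it at E17.5 against 0 at E12.5 and 1 in each adult library. All 8 general epithelial markers reached it in every library, while 0 of 8 immune and 0 of 7 endothelial markers did. At E17.5, 5 of 9 islet and 4 of 8 smooth muscle markers reached it too. Tuft markers were below it at both embryonic ages (0 of 12) and 9 and 8 of 12 reached it in the adult and irradiated adult.

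Ribosomal protein mRNA took more than 20% of the embryonic RNA and close to 10% of the adult RNA. Summed over kept cells, the members held 21.8% of the UMIs of E12.5 (interval 21.81 to 21.83%) and 21.4% of those of E17.5 (21.36 to 21.38%). Their share was 10.1% for untreated adults (10.12 to 10.14%) and 8.52% after irradiation (8.51 to 8.53%). The large subunit gave 11.6%, 11.3%, 5.51% and 4.77%, and the small subunit 10.0%, 9.65%, 4.43% and 3.61%. The median cell had 21.6%, 19.5%, 4.90% and 6.54%. The adult was thus above the irradiated adult in the sum and below it in the median cell. In the adult, 125 cells of a single cluster led by Mki67, Ube2c and Top2a (3.48% of kept cells) held 50.3% of all ribosomal protein UMIs, and in the irradiated adult 95 enterocyte-like cells (3.13%) held 33.5%. Without these clusters, a choice made after they were seen, the summed shares were 6.43% and 6.51%. Cells with a share above 15% were 85.8%, 61.4%, 6.64% and 8.35% of all kept cells.

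**Figure D1:**
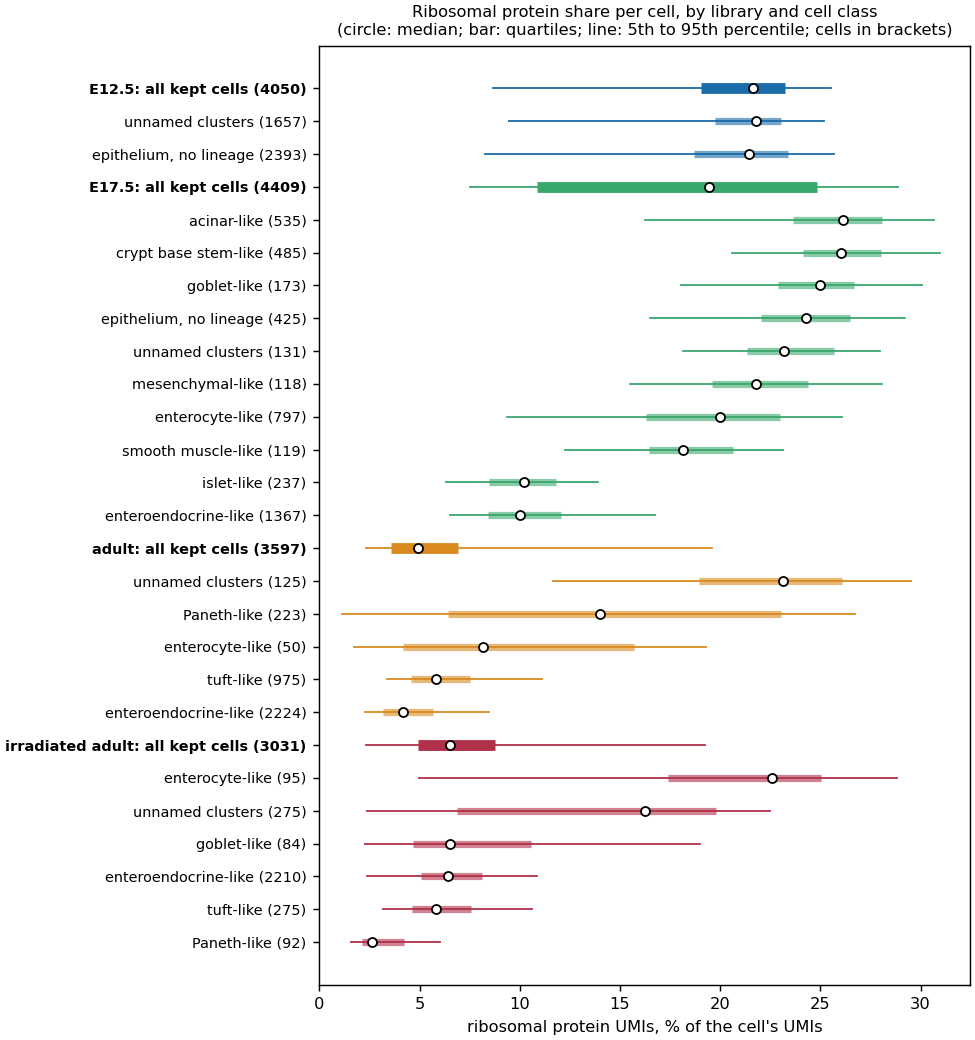
Share of each cell's UMIs that fell on ribosomal protein genes (horizontal axis, percent), for all kept cells of each library (bold) and for its cell classes of at least 50 cells. Circles are medians over cells, thick bars the quartiles and thin lines the 5th to 95th percentile. Enteroendocrine-like cells have the lowest median at E17.5 (10.0%) and among untreated adults (4.17%), while after irradiation (6.42%) tuft-like and Paneth-like cells lie lower.

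Within a library the share differed between cell classes by more than it differed between some libraries. Classes were named from marker genes after clustering without the ribosomal protein and mitochondrial genes. At E12.5 the unnamed clusters with deep cells lay close together and a shallow one lay lower: the one led by the division genes Ube2c and Cdc20 had 21.5%, the one led by the pancreatic genes Spp1, Cpa1 and Pdx1 22.8%, and 136 shallow cells led by Ttr and Rbp4 (median 988 UMIs) 16.2%. At E17.5 the highest summed shares were in crypt base columnar stem-like cells (26.2%, 485 cells, led by Olfm4 and Lgr5) and pancreatic acinar-like cells (26.1%, 535 cells, led by Ctrb1 and Cpa1). Goblet-like cells (24.9%, 173 cells) and epithelium of no named lineage (24.96%, 425 cells) were next, followed by an unnamed cluster led by Spp1 and Neurog3 (23.4%, 131 cells) and by mesenchymal-like (21.6%), enterocyte-like (20.7%) and smooth muscle-like cells (18.4%). The hormone-secreting classes stood at less than 50% of the stem-like value: enteroendocrine-like cells had 10.6% (1367 cells) and islet-like cells 9.75% (237 cells). Among the 8 enteroendocrine-like clusters with different leading hormones, summed shares ran from 8.15% (led by Sst and Ghrl) to 13.3% (led by Sst, Rbp4 and Isl1). The secretory acinar-like cells, which make digestive enzymes, were at the top and not beside the hormone-secreting classes.

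In the adult, the dividing cluster led by Mki67 and Ube2c had 23.4%, between the epithelium of no named lineage at E12.5 (21.7%) and at E17.5 (24.96%). The other adult classes were enterocyte-like cells (11.0%, 50 cells), Paneth-like cells (6.78%, 223 cells), tuft-like cells (6.44%, 975 cells) and enteroendocrine-like cells (5.61%, 2224 cells). The Paneth-like class, cells that secrete antimicrobial defensins, was divided: 146 cells had a median of 21.7% ribosomal protein UMIs at a median depth of 1866 UMIs, and 77 cells had a median of 3.34% at 28751 UMIs. Both clusters had Defa29, Defa30 and other defensin genes among their leading genes. Of the Paneth-like cells deep enough to be counted, 22 had at least 3 G2/M UMIs (as defined below) and 123 had fewer. Their thinned medians were 21.1% and 8.9%. With at least 2 G2/M UMIs, 42 cells had 23.2% against 7.8% in 103 others. These counts were not split by cluster, and whether the shallow cluster held cells other than Paneth cells was not tested. Within the enteroendocrine-like class the lowest clusters were led by Stxbp5l and Chga (median 2.79%, 253 cells, median mitochondrial share 14.6%) and by Gip and Pclo (3.65%, 892 cells, 9.99%). The highest was led by Gip and Fabp5 (6.97%, 169 cells, 3.40%). The rank correlation of ribosomal protein and mitochondrial share over the 2224 cells was -0.56, as a description of 1 library, and the part of the mitochondrial share in this order was not tested.

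In the irradiated adult, enterocyte-like cells had 22.0% (95 cells), with Apoa4, Ccnd1 and the division gene Ube2c among their leading genes. They included 23 of the 33 cells counted as dividing in that library (at least 3 G2/M UMIs, as defined below). All 50 enterocyte-like cells of the untreated adult fell below that cut, so the classes of this name are not alike in the adult libraries. An unnamed cluster of 198 shallow cells (median 1406 UMIs) led by Clu, Ly6d, Anxa3 and Ly6a had 18.2%. Another unnamed cluster of 77 cells (median 2216 UMIs) had 4.25%, with a median mitochondrial share of 12.3%. Its leading genes included Nts, Pclo, Sct and Scg2, but its cells are not counted in the enteroendocrine-like class. Goblet-like cells had 10.2% (84 cells), enteroendocrine-like cells 7.20% (2210 cells), tuft-like cells 6.21% (275 cells) and Paneth-like cells 2.86% (92 cells, median 99299 UMIs). Tuft-like cells, the chemosensory cells of the epithelium, differed little between the adult and the irradiated adult (summed 6.44% and 6.21%, medians 5.80% and 5.81%). Enteroendocrine-like cells differed more (summed 5.61% and 7.20%, medians 4.17% and 6.42%), and their median depth differed too (3188 and 9544 UMIs).

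Over whole libraries depth and ribosomal protein share had a positive rank correlation, but the share did not rise evenly with depth in the adult libraries. Nor did the correlation hold in every class. At E12.5, cells with 500 to 1000 UMIs had a median of 10.2% and cells with 1000 to 2000 UMIs 9.92%, while those with 8000 to 16000 UMIs had 22.8%. In the untreated adult the median fell from 7.56% (500 to 1000 UMIs) to 3.84% (2000 to 4000) and reached 20.4% at 32000 to 64000. In the irradiated adult it was 8.99%, 3.72% and 17.3% in the same bins, and 3.26% from 64000 UMIs upward. The rank correlation of share and depth over all kept cells was 0.35, 0.52, 0.31 and 0.18, each describing the cells of 1 library. Within classes of E17.5 it was 0.03 in stem-like, -0.11 in enteroendocrine-like, -0.51 in islet-like, 0.32 in acinar-like and 0.45 in enterocyte-like cells. In untreated adults it was 0.37 in enteroendocrine-like, 0.03 in tuft-like and -0.44 in Paneth-like cells, and after irradiation 0.42 in enteroendocrine-like and -0.12 in tuft-like cells. In cells of equal depth the distance between classes depended on the depth. Between 2000 and 4000 UMIs at E17.5, enterocyte-like cells (median 10.4%, 25 cells) lay close to enteroendocrine-like cells (9.39%, 54 cells). Acinar-like cells had 21.9% there (42 cells). Between 8000 and 16000 UMIs at E17.5 the classes lay apart. The median was 26.8% in stem-like cells (61 cells), 26.4% in acinar-like cells (214) and 20.04% in enterocyte-like cells (63). It was 9.60% in enteroendocrine-like cells (549) and 9.19% in islet-like cells (106). Enteroendocrine-like cells of that depth in the adult libraries had medians of 6.18% (untreated, 423 cells) and 6.84% (irradiated, 953 cells). Between 4000 and 8000 UMIs they had 4.08% (untreated, 295 cells) and 5.82% (irradiated, 384 cells), against 10.4% at E17.5 (713 cells). In both of these depth ranges the irradiated adult lay above the untreated adult and both lay below E17.5. The irradiated adult was also higher between 500 and 1000 UMIs and between 16000 and 32000 UMIs. Between 2000 and 4000 UMIs, however, the adult medians were close, at 3.26% (untreated, 861 cells) and 3.19% (irradiated, 255 cells). Between 1000 and 2000 UMIs (441 and 176 cells) the untreated adult was slightly higher too. The higher share after irradiation was thus not seen at every depth. Between 8000 and 16000 UMIs the quartiles of the adult libraries overlapped (5.19 to 7.57% and 5.77 to 8.38%). The lower quartile of E17.5 there was 8.21%, above the upper quartile of untreated adults and just below that of irradiated adults.

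**Figure D2:**
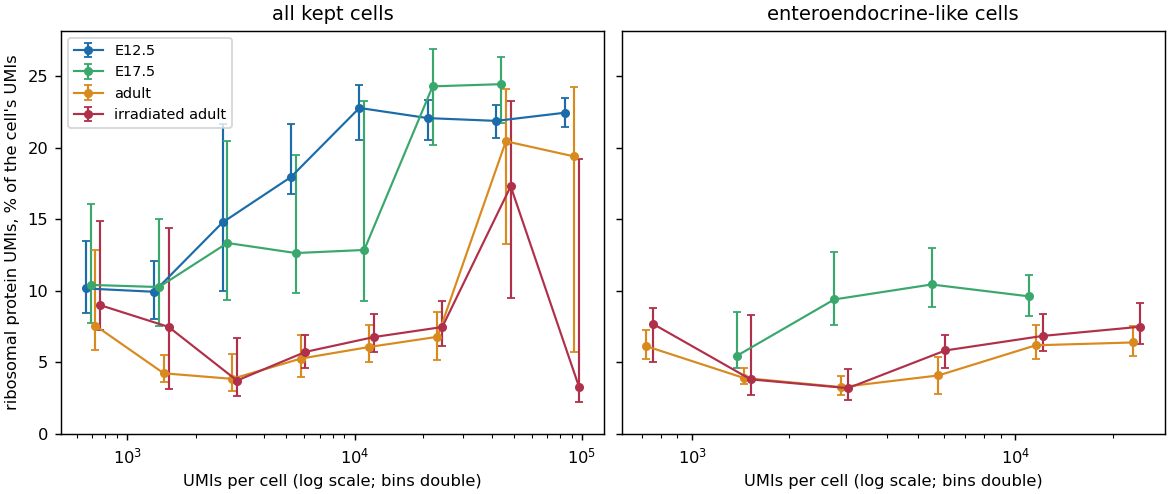
Median share of ribosomal protein UMIs (vertical axis, percent of a cell's UMIs; bars are quartiles) against UMIs per cell (horizontal log axis, bins that double), for all kept cells (left) and enteroendocrine-like cells (right). On the right, the E17.5 points lie above both adult series from 2000 UMIs upward. On the left, both adult series stay under 10% between 1000 and 32000 UMIs.

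Cells counted as dividing had a high share in the adult libraries, where most of them lay in a single class, and no higher share in the E12.5 library. A cell was counted as dividing when at least 3 of its UMIs fell on 15 G2/M genes after thinning to 2000 UMIs, and shallower cells (184 to 646 a library) were left out. In the adult, 111 dividing cells had a thinned median of 22.6% against 4.90% in 2840 other cells, and in the irradiated adult 33 had 22.2% against 6.40% in 2515. Without thinning these were 22.8% against 4.93% and 21.9% against 6.37%. Of the 111 dividing cells of the adult, 84 lay in the cluster led by Mki67 and 22 in the Paneth-like class. In the adult cluster led by Mki67 itself, dividing and other cells had the same thinned median (23.1% in 84 cells and 23.1% in 37). Of the 33 in the irradiated adult, 23 were enterocyte-like, with 23.55% against 22.0% in the other 68 cells of that class. With at least 2 G2/M UMIs, 32 enteroendocrine-like cells of the adult had 3.25% against 4.20% in 1703 others. At E17.5 the values were 24.4% (1254 cells) and 14.3% (2971 cells), or 24.5% and 14.4% without thinning. Within the stem-like class, however, dividing cells lay lower (25.4% against 27.9%, or 25.5% against 27.4% without thinning). So did 42 dividing mesenchymal-like cells (19.85% against 23.35%, or 19.7% against 23.3% without thinning). In the unnamed cluster 35 dividing cells lay lower too (22.0% against 24.45%, or 21.8% against 24.4% without thinning). Dividing cells lay higher in enterocyte-like cells (21.9% against 19.2%), epithelium of no named lineage (24.8% against 22.8%) and goblet-like cells (25.4% against 23.9%). They lay close to the others in acinar-like cells (26.1% against 26.4%). Without thinning, the values of these last 4 classes were 21.6% against 19.4%, 24.99% against 22.6%, 25.5% against 23.4% and 26.2% against 26.3%. At E12.5 dividing cells had 21.4% (2137 cells) and others 23.2% (1342 cells), and 21.5% and 23.2% without thinning. The 15 G2/M genes summed to 2894, 1934, 573 and 141 CPM, and all 15 were at least 1.5-fold lower in the irradiated than in the untreated adult (median log2 ratio -1.83, all genes 13.4%). Dividing cells were also deeper in each library, for example a median of 43617 against 4313 UMIs in the adult.

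Levels of single members were compared as CPM in summed UMIs. The kit tags each mRNA once, near its 3' end, so CPM counts molecules and needs no correction for length, but members that share sequence with copies elsewhere can lose reads. Rpl13, of the large subunit, was the highest core member in every library, with 6531, 6465, 2703 and 2156 CPM. The median core member had 2869, 2712, 1329 and 1105 CPM. The lowest was Rpl13a at E12.5 (287 CPM) and in the irradiated adult (127 CPM), and Rpl35 at E17.5 (118 CPM) and in the adult (46.4 CPM). The order of the 77 core members was similar between libraries, with rank correlations from 0.81 (E17.5 and irradiated adult) to 0.94 (E12.5 and E17.5), points that share each gene's mappability. Of the 86 members, 83 reached 50 UMIs in some library. The other 3 were Rpl3l, known from striated muscle, and Rpl10l and Rpl39l, known from the testis. Rpl3l had at most 5 UMIs and Rpl39l at most 5 UMIs in a library, and Rpl10l had 0 UMIs in every library, which allows up to 3.

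Between E12.5 and E17.5 most members kept their level. The median log2 ratio of CPM (pseudocount 1) over the 83 members was -0.04 and over the 14503 genes that reached 50 UMIs in one of the pair -0.19. The members lay between -3.73 and 2.45, with 9 higher and 7 lower by at least 1.5-fold (all genes 24.6% higher and 32.1% lower). Measured from the member median, 9 were above and 7 below by that fold (all genes 25.4% and 30.4%). The stalk gene Rplp0 had 4755 CPM at E12.5 and 5230 at E17.5, Rplp1 3158 and 3086, and Rplp2 1955 and 1433. Rpsa, the small-subunit protein also known as the laminin receptor, had 4486 and 4577. The members lower at E17.5 were all of the large subunit: Rpl10 (-3.73), Rpl35 (-2.76), Rpl23a (-1.20), Rpl41 (-0.94), Rpl13a (-0.94), Rpl12 (-0.76) and Rpl5 (-0.63). Besides the paralogs Rpl36al (2.45), Rps27rt (2.02), Rpl22l1 (0.94) and Rps27l (0.74), the higher ones were Rpl27 (2.40), Rpl39 (0.73), Rps28 (0.65), Rpl37 (0.64) and Rpl37a (0.61).

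In the adult nearly every member stood below E17.5. The median log2 ratio was -1.04, or 48.7% of the E17.5 level, against -0.10 over 13998 genes. Of 83 members, 71 were lower by at least 1.5-fold, while 0 were higher (all genes 30.1% lower and 23.3% higher). A ratio below 0 was found for 82, a count for which no share over all genes is given. The small subunit had a median of -1.25 and the large subunit -0.98. Rps27a, which encodes ubiquitin fused to a small-subunit protein, went from 5111 to 1667 CPM (-1.62), Rps24 from 4788 to 1602 (-1.58), Rps4x from 4382 to 1521 (-1.53) and Rpl3, next to the catalytic centre, from 3316 to 1202 (-1.46). Rplp0 went from 5230 to 2151 CPM and Rpsa from 4577 to 1793, while Rplp1 went only from 3086 to 2204. A few members had nearly the same level in both: Rps15 (793 and 799 CPM), Rpl23a (550 and 513), Rps21 (1178 and 1089), Rps12 (2294 and 1997) and the retrogene Rps27rt (179 and 167). Relative to the member median, 8 were higher by at least 1.5-fold (64.9% of all genes) and 1, Rpl22l1, was lower (5.26%). Without the adult dividing cluster of 125 cells the median was -1.65.

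The levels after irradiation lay closer to those of untreated adults. The median log2 ratio over the 83 members was -0.24 and over 12812 genes -0.05, with 4 members higher and 12 lower by at least 1.5-fold (all genes 8.59% and 13.4%). Measured from the member median, 4 were above and 3 below (all genes 16.9% and 7.83%). The direction of the median did not hold: it was 0.28 when each cell was given equal weight and 0.02 without the cluster of each library that held most ribosomal protein UMIs. Rplp0 had 2151 CPM in untreated and 1892 in irradiated adults, Rplp1 2204 and 1939, Rplp2 907 and 734, and Rpsa 1793 and 1590. The members higher after irradiation were Rpl10 (3.44), Rpl35 (2.16), Rpl41 (0.77) and the paralog Rps27l (0.62). Rps24 came next with 1602 and 1728 CPM (0.11). The lowest ratios were those of Rps27rt (-2.04), Rpl27 (-1.89), Rpl36al (-1.57), Rps27 (-0.74) and Rpl22 (-0.71).

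**Figure D3:**
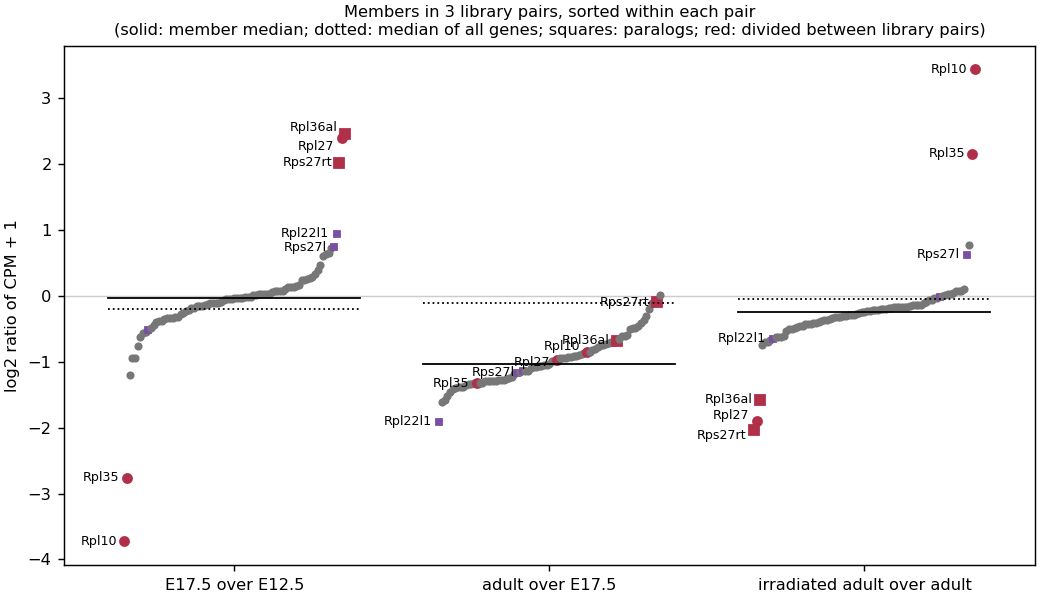
Log2 ratio of CPM + 1 (vertical axis) for each of the 83 members in 3 library pairs, sorted within a pair. Solid lines mark the member median (-0.04, -1.04 and -0.24) and dotted lines the median of all genes (-0.19, -0.10 and -0.05), squares are paralogs, and red marks the 5 members that divide the libraries into pairs. In the middle pair 82 of 83 members lie below 0, a count without a share over all genes. Rpl10 and Rpl35 lie at the bottom of the first pair and at the top of the third.

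The sequence at the start of the mRNA was not used in choosing the members. RefSeq promoter entries (GRCm38.p6, 250 bases before to 50 after the annotated start) were found for 66 of 86 members, 57 of them core. The 57 core genes have 67 entries. Within 15 bases on either side of the start, CTTTC, a short pyrimidine word of the oligopyrimidine type searched on the gene's strand, was found in 16 of these 67 entries (23.9%), which belong to 16 genes, against 4.05% of 32851 promoter entries of all genes. The word CCGGAA or its complement TTCCGG, the core bound by ETS-family factors, was found on either strand of the whole window in 33 of 67 (49.3%) against 14.9%, and this word can share bases with CTTTC, as in the Rps27 window. TATAAA on the gene's strand was found in 5 of 67 (7.46%) against 8.32%. The windows below show 15 bases before and 15 after the annotated start, 5' to 3' on the gene's strand, with each CTTTC in capitals. Rps27 is set beside Rps27rt and Rps27l because the 3 paralogs behaved differently between libraries, Rpl35 because its level divides the libraries, and Rplp2, Rpl28 and Rpl38 as further members that carry the word.
Rps27, chr3:90213634-90213663, minus strand: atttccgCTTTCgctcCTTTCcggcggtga
Rps27rt, chr9:114982725-114982754, minus strand: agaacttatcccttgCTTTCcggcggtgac
Rps27l, chr9:66946071-66946100, plus strand: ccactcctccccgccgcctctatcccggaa
Rpl35, chr2:39005117-39005146, minus strand: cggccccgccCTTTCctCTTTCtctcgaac
Rplp2, chr7:141447636-141447665, plus strand: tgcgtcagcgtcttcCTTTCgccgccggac
Rpl28, chr7:4792950-4792979, plus strand: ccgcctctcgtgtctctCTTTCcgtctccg
Rpl38, chr11:114668565-114668594, plus strand: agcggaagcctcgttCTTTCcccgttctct
The window of the retrogene Rps27rt carries the same CTTTC word and the bases after it as Rps27, while the Rps27l window has no CTTTC. A match is a description of the letters and was not related to the levels.

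Of the 83 members, 5 divided the libraries into E12.5 with irradiated adult on one side and E17.5 with adult on the other, a pattern looked for after the values were seen. Rpl10, a large-subunit protein added late in ribosome assembly, had 1824, 137, 75.6 and 832 CPM. Rpl35, near the exit of the peptide tunnel, had 805, 118, 46.4 and 210 CPM. Both were higher by at least 1.5-fold in both libraries of the first pair than in both of the second, as were 0.884% of 12672 genes. Rpl27 went the other way, with 309, 1641, 832 and 223 CPM, and so did Rpl36al (207, 1141, 713 and 239 CPM) and the retrogene Rps27rt (43.3, 179, 167 and 39.7 CPM), as did 2.11% of all genes. Neither pair shares a stage in the labels. Only the irradiated adult is labelled as irradiated, so unirradiated libraries lie on both sides.

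Rpl10 (chrX:74270812-74273135 in GRCm38) kept this division in every class of at least 50 cells. It lay between 1786 and 1889 CPM in the 2 classes of E12.5 and between 315 and 1345 in the 6 of the irradiated adult, against 103 to 239 in the 10 of E17.5 and 44.3 to 127 in the 5 of the untreated adult. Rps27rt kept the division too, in the other direction. It had 42.3 to 44.8 CPM at E12.5 and 11.0 to 75.2 after irradiation, against 113 to 233 at E17.5 and 101 to 276 in the untreated adult. Rpl27 (chr11:101442298-101445529) lay between 925 and 1993 CPM in the classes of E17.5 and at 307 to 311 in those of E12.5, while the ranges of untreated (473 to 1812) and irradiated adults (74.4 to 567) overlapped. Rpl35 (chr2:39001580-39005624) had 86.7 to 574 CPM in the irradiated classes, which overlapped those of E17.5 (47.3 to 161) and of the untreated adult (23.5 to 100.3). These ranges pool unlike classes. Within each class named in both adult libraries, Rpl35 was higher and Rpl27 lower after irradiation. Untreated and irradiated enteroendocrine-like cells had 23.5 and 160 CPM of Rpl35, and 536 and 192 of Rpl27. Tuft-like cells had 46.7 and 176, and 543 and 161. The Rpl10 copy Rpl10-ps3, left out by the rule, moved opposite to Rpl10, with 38.03, 207, 140.4 and 27.4 CPM. In the last 300 bases of their annotated transcripts, these 5 members shared from 60.9 to 96.0% (median 88.4%) of their 50-base words with transcripts of other genes, against a median of 48.3% (range 0 to 100%) in the other 81. How reads that fit several genes were assigned in each library is not given in the sources used here, and its part in the division was not tested. These 5 members held between 1.46% (E12.5) and 1.81% (irradiated adult) of ribosomal protein UMIs.

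**Figure D4:**
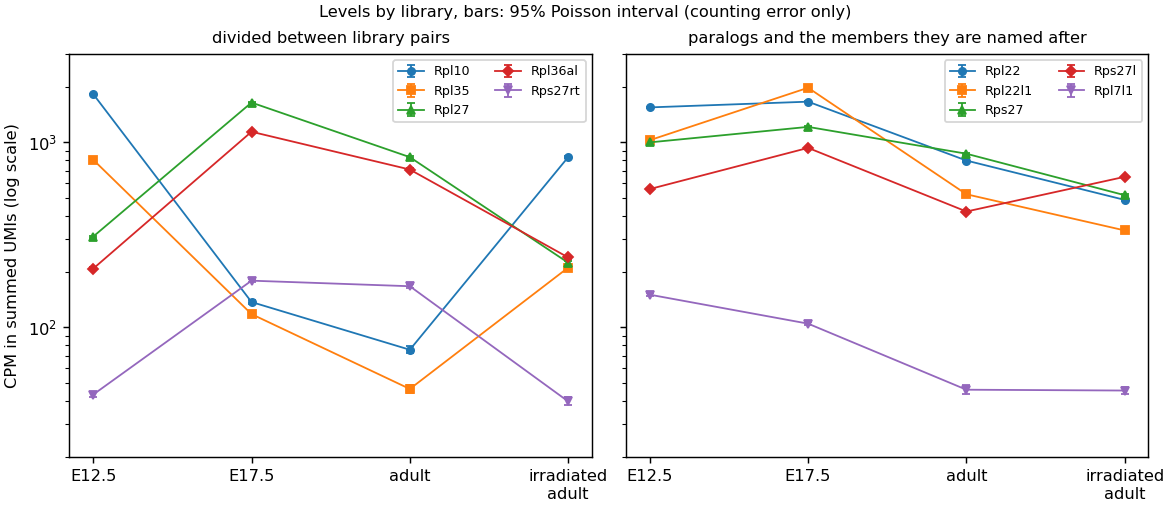
CPM in summed UMIs (vertical log axis) in the 4 libraries, with 95% Poisson intervals that are mostly smaller than the symbols. Left, the 5 members that divide the libraries into pairs. Right, 3 paralogs with Rpl22 and Rps27: Rps27l is the only line in this panel that ends clearly higher in the irradiated adult (651 CPM) than in the adult (423 CPM).

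The paralogs did not follow one course. Rps27l (chr9:66946086-66949516), a p53-induced relative of Rps27, had 559, 933, 423 and 651 CPM, while Rps27 had 999.4, 1212, 868 and 518. The ratio of Rps27l to Rps27 UMIs was 0.559 and 0.770 in the embryonic libraries, 0.487 in untreated adults (0.477 to 0.497) and 1.26 after irradiation (1.23 to 1.28). The higher level after irradiation was seen within classes: 249 and 476 CPM in enteroendocrine-like cells (log2 ratio 0.93) and 336 and 570 in tuft-like cells (0.76). Other p53 targets from a fixed list moved with it, since 8 of 8 were at least 1.5-fold higher in the irradiated adult (median 1.61, all genes 8.59%), among them Cdkn1a (371 and 870 CPM), Mdm2 (31.5 and 93.0), Ccng1 (22.3 and 176) and Phlda3 (1.98 and 95.4). In enteroendocrine-like cells 8 of 8 were higher as well (median 1.39, all genes 6.66%). Rps27l was also high in acinar-like cells of E17.5 (1923 CPM, against 963 in stem-like cells).

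Rpl22l1, the relative of the RNA-binding protein Rpl22, had 1027, 1973, 524 and 334 CPM, against 1545, 1659, 797 and 488 for Rpl22. Its ratio to Rpl22 was 0.665, 1.19, 0.657 and 0.684, highest at E17.5. Rpl36al exceeded Rpl36a at E17.5 (ratio 1.24) and in the adult (1.48) but not at E12.5 (0.194) or in the irradiated adult (0.611), which is the division described above. Rpl7l1, a factor of ribosome assembly related to Rpl7, stayed between 0.0386 and 0.0544 of the Rpl7 level, with 150, 105, 46.0 and 45.5 CPM. Rps19bp1 had 79.3, 71.4, 43.4 and 44.4 CPM.

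The same class was also compared between libraries. In enteroendocrine-like cells the members had a median log2 ratio of -0.87 in the adult over E17.5 (54.7% of the E17.5 level), against 0.05 over 11251 genes. Of 83 members, 59 were lower by at least 1.5-fold and 1 higher (all genes 19.8% and 23.2%). Rplp0 went from 2176 to 932 CPM, Rps24 from 1808 to 716 and Rps2 from 1688 to 805, while Rps15 was higher (345 and 524 CPM). In the irradiated over the untreated adult the enteroendocrine-like median was 0.33, with 9 members higher and 3 lower (all genes 6.66% and 6.87%, median 0.06). Tuft-like cells had -0.04, with 4 higher and 6 lower (all genes 7.82% and 5.19%, median 0.08). Rpl41, which encodes a very short basic protein, was among the higher ones in both classes (663 and 1659 CPM in enteroendocrine-like cells, 1967 and 3229 in tuft-like cells).

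Between classes of E17.5, all of them from 1 library, enteroendocrine-like cells had a median of -1.269 over stem-like cells, with 80 of 83 members lower by at least 1.5-fold and 0 higher (all genes 26.7% and 37.6%). Rps2, at the mRNA entry of the small subunit, had 1688 and 6979.5 CPM (-2.05), the lowest ratio, while Rpl10 stood at 0.01. Islet-like cells had -1.33, with 81 of 83 lower and 0 higher (all genes 36% and 25.3%), led by Rps24 (1043 and 5686 CPM, -2.45). Enterocyte-like cells had -0.34, goblet-like cells -0.07 and acinar-like cells -0.01, and in these 3 comparisons 0 members were lower by 1.5-fold (all genes 16.1%, 2.97% and 53.3%). In enterocyte-like and goblet-like cells 0 members were higher (all genes 17.8% and 7.77%). In acinar-like cells 2 were higher (all genes 11%): Rps27l (1.00) and Rpl10 (0.87). In the adult, the dividing cluster over enteroendocrine-like cells had a median of 2.02, with 83 of 83 members higher and 0 lower (all genes 25.7% and 41.7%), from 0.83 for Rps19bp1 to 2.91 for Rps2.

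Tuft-like and enteroendocrine-like cells differed in some members, though less often than in genes at large, and did so alike in both adult libraries. The median tuft-like over enteroendocrine-like ratio was 0.13 in untreated adults, with 11 members higher and 11 lower by 1.5-fold (all genes 15.7% and 47.7%). After irradiation it was -0.27, with 6 higher and 19 lower (all genes 15.3% and 43.9%). Relative to that median, 6 of 83 members were at least 1.5-fold higher in tuft-like cells of both libraries (all genes 12.6%) and 10 were lower in both (all genes 32.7%). Those higher were Rpl41, Rps29, Rps27rt, Rps27, Rps19 and Rps21. Rps29 had 1365 CPM in tuft-like and 496 in enteroendocrine-like cells of the adult, and 1241 and 704 in the irradiated adult. Rps27 had 1272 and 515, then 903 and 487. Those lower were Rpl5, Rpl10a, Rps2, Rpl22l1, Rps3a1, Rps4x, Rpl12, Rpl10, Rps7 and Rpl13a. Rpl5, which with Rpl11 carries an rRNA into the large subunit and can bind Mdm2, had 234 and 505 CPM without irradiation and 274 and 689 with it. Rps2 had 442 and 805, then 382 and 1108. Across the 83 members the relative ratios of the libraries had a rank correlation of 0.95, as a description of genes whose reads share the same mappability. Tuft-like cells also had a higher median mitochondrial share than enteroendocrine-like cells (13.6% against 7.77% in untreated and 15.7% against 4.79% in irradiated adults), and its part in these ratios was not tested.

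**Figure D5:**
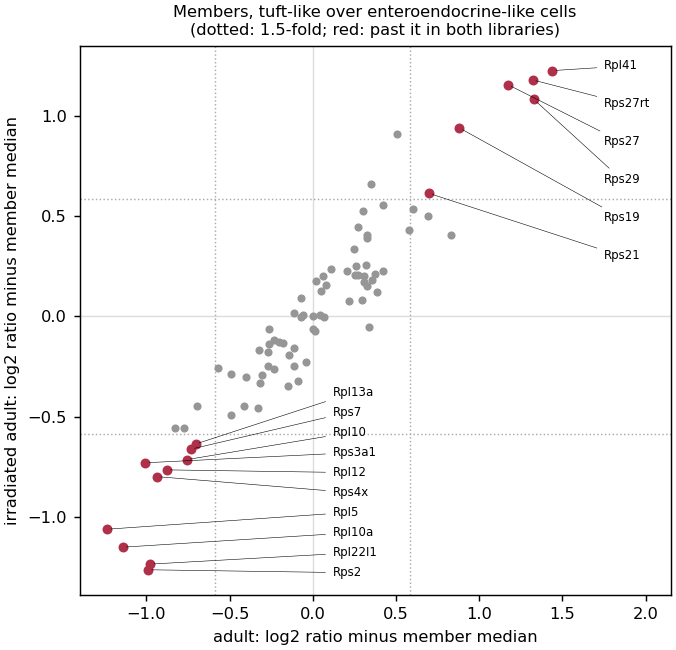
Log2 ratio of tuft-like over enteroendocrine-like cells minus the member median, for untreated (horizontal axis) and irradiated adults (vertical axis), for 83 members. Dotted lines mark 1.5-fold and red points lie past it in both libraries: 6 at the upper right, led by Rpl41 (1.44 and 1.23), and 10 at the lower left, led by Rpl5 (-1.23 and -1.06).

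Other parts of the translation machinery were followed as fixed lists. Ribosome-bound proteins and translation factors had a median of -0.91 in the adult over E17.5, with 13 of 17 lower by at least 1.5-fold (all genes 30.1%), including Eef1a1 (4469 and 2546 CPM), the nascent-chain chaperone Naca (1713 and 553) and Rack1 of the small subunit (1695 and 1017), while Eef2 had 612 and 648. Between E12.5 and E17.5, 0 of 17 passed 1.5-fold (all genes 24.6% higher and 32.1% lower). Their median was -0.23, near that of all genes (-0.19). Ratios below 0 were 17 of 17, a count for which no share over all genes is given. Ribosome biogenesis factors took another course: 15 of 20 were lower at E17.5 than at E12.5 (median -0.87, all genes 32.1%) and 15 of 20 were lower in the adult than at E17.5 (-0.90, all genes 30.1%). Npm1, a nucleolar assembly chaperone, had 3939, 2056, 557 and 415 CPM, nucleolin (Ncl) had 1684, 670, 388 and 305, and the methyltransferase Fbl had 237, 116, 66.8 and 65.2. In enteroendocrine-like cells 3 of 19 biogenesis factors were lower in the adult than at E17.5 (median -0.09), a share near that of all genes (19.8%). Over stem-like cells of E17.5, enteroendocrine-like cells had 18 of 20 lower (median -1.74, all genes 26.7%).

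Mitochondrial ribosomal proteins, which build the ribosome inside mitochondria, were listed with 78 genes, of which 77 could be compared. They had a median of 0.27 at E17.5 over E12.5 (14 higher and 1 lower, where 24.6% and 32.1% of all genes were), and -0.90 in the adult over E17.5 (66 of 77 lower, where 30.1% of all genes were). In the irradiated over the untreated adult the median was -0.34, with 13 of 77 lower, a share near that of all genes (13.4%), and 0 higher (all genes 8.59%). Of the growth regulators of the ribosome, Mycn had 75.5, 16.3, 1.38 and 1.42 CPM, Myc 7.46, 22.8, 9.73 and 10.0, and the translation repressor Eif4ebp1 97.2, 121, 22.8 and 32.9. Larp1 had 68.1, 82.3, 80.4 and 67.2 CPM and Mtor 15.8, 12.3, 13.3 and 11.7. Adult over E17.5, 3 of 9 growth regulators were lower, a share near that of all genes (30.1%). Only 1 was higher (Rptor, 11.6 and 19.0 CPM, all genes 23.3%), and the median was -0.19.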

How the data were processed

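The deposited files are sparse matrices of UMI counts per gene and barcode, made by the authors with the 10x Chromium 3' kit, with 1 matrix for each library. Cell Ranger 3.1.0 and the build mm10 are named in the submitters' processing notes, without their roles. Each deposited barcode had at least 500 UMIs. Here, cells with at least 500 genes and at most 20% mitochondrial UMIs were used, and the highest doublet scores (scrublet, 0.8% of barcodes per 1000 barcodes) were removed. Cells were clustered in each library with Scanpy 1.11.5 (2000 variable genes without members and mitochondrial genes, 30 components, 20 neighbours, Leiden resolution 1). Clusters were named from 16 marker lists by the highest score, when it reached 0.5 and at least 3 markers counted. A marker counted with at least 50 CPM in the cluster, UMIs in 10% of its cells and CPM no lower than in the library. A name was withdrawn when the cluster's 10 leading genes held more markers of another class, or none of its own. General epithelium lost its name when they held at least 3 markers of another class, or when a shallow cluster had none of its own. The class names are rebuilt, not the authors'. Level ratios are log2 of CPM + 1 over summed counts, for genes with at least 50 UMIs in either of the groups compared, and "higher" and "lower" mean at least 1.5-fold. Intervals are exact (Poisson for counts and ratios, Clopper-Pearson for shares) and account for counting error alone. No p-value was computed, since each group is a single library. The ratio code was tested on simulated data: all 200 changed genes of E17.5 over E12.5 (14164 genes) kept their simulated direction, and the interval held the true ratio for 95.5% of them. The rule for named genes took, for each library pair, the 5 lowest and 5 highest members relative to the member median among those with at least 200 UMIs in the higher library, the stalk genes, Rpsa, Rps19bp1, the paralogs with the genes they are named after, and the fixed lists. Members named for other reasons were chosen after their values were seen. Members and lists were chosen with earlier results of these data known. Gene positions are from GENCODE M21 (GRCm38) and promoter windows from RefSeq (GRCm38.p6). A gene list and the share under another choice of members are not reported here.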

Additional observations from a re-analysis of the deposited data

Results flagged for a closer look

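The member medians of enteroendocrine-like and tuft-like cells between the adult libraries had opposite signs, that of tuft-like cells being close to 0. The median log2 ratio of the 83 ribosomal protein genes, irradiated over untreated, was 0.33 in enteroendocrine-like cells and -0.045 in tuft-like cells. Over all genes the medians were 0.06 and 0.08. An interval for the member median, set by the spread over members, was 0.30 to 0.39 in enteroendocrine-like cells. In tuft-like cells it was -0.14 to 0.01, so the sign of that median is not settled. Of the 83 ratios, 74 were above 0 in enteroendocrine-like cells and 35 in tuft-like cells, counts for which no share over all genes is given. The difference was not tested, since each group has 1 library. The median depth of enteroendocrine-like cells differed between these libraries (3188 and 9544 UMIs) more than that of tuft-like cells (4102 and 4647 UMIs), and so did their median mitochondrial share (7.77% and 4.79%, against 13.6% and 15.7%). The part of depth and mitochondrial share in the difference was not tested.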

How the results depend on the processing

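No paired analysis was possible because each group has 1 library. For the same reason no replicate could be left out. Of the values recomputed under alternatives, 67 stayed within the margin set for them, 81 moved and 3 changed sign. The margin was the counting interval for shares, an interval set by the spread over members or cells for medians, and 1.5-fold for counts of members. Counting intervals are narrow, so small shifts of a share count as moved. Library shares, in the order E12.5, E17.5, untreated adult, irradiated adult, were 21.6, 21.2, 9.48 and 7.94% with every deposited barcode, and 21.9, 21.4, 9.17 and 8.39% with at least 1000 genes and at most 10% mitochondrial UMIs. They were 21.9, 21.3, 10.2 and 8.57% with doublets kept, 22.9, 22.3, 11.1 and 9.03% without mitochondrial UMIs, and 24.1, 23.6, 14.0 and 12.003% without these and the 10 most abundant other genes. Cells with at least 2000 UMIs gave 21.9, 21.4, 10.3 and 8.51%. The mean over cells was 20.2, 18.3, 6.38 and 7.58%, which puts the irradiated above the untreated adult. Without pancreatic and non-epithelial clusters E17.5 had 21.3%. Of the alternatives chosen after seeing the data, leaving out the 5 members that divide the libraries gave 21.5, 21.1, 9.95 and 8.36%, and leaving out the cluster with most ribosomal protein UMIs gave 6.43% (untreated) and 6.51% (irradiated).

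Class shares without mitochondrial UMIs were 10.8% (E17.5), 5.98% (adult) and 7.65% (irradiated) for enteroendocrine-like cells, 7.41 and 7.30% for tuft-like cells of untreated and irradiated adults, 27.6% for stem-like and 21.8% for enterocyte-like cells of E17.5. Without the 10 most abundant other genes as well they were 13.9, 8.25, 9.94, 9.41, 8.92, 28.8 and 22.9%. At resolution 0.5 enteroendocrine-like cells had 10.9% at E17.5 and 7.32% after irradiation, stem-like cells 25.9% and enterocyte-like cells 20.5%. At resolution 2 tuft-like cells had 6.25% after irradiation, stem-like cells 26.1% and enterocyte-like cells of E17.5 18.9%. With the members used in clustering the values were 10.5 and 7.28% (enteroendocrine-like, E17.5 and irradiated), 6.27% (tuft-like, irradiated), 26.4% (stem-like) and 20.4% (enterocyte-like).

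The median log2 ratio of E17.5 over E12.5 changed sign with TMM scaling (0.083) and was -0.15 as a mean over cells. That of the adult over E17.5 was -1.49 as a mean over cells, -1.17 with the stricter cell filter and -1.65 without the adult dividing cluster. That of the irradiated over the untreated adult was -0.16 with TMM scaling and -0.11 with the stricter filter, and changed sign as a mean over cells (0.28) and without the cluster of each adult library with most ribosomal protein UMIs (0.025). The cause of these sign changes was not tested. Counts of members apart from the member median fell with a 2-fold threshold, to 3 above and 3 below for E17.5 over E12.5 and to 1 above and 0 below for the adult over E17.5. As a mean over cells the latter were 13 and 5, and with the stricter filter 2 were below. For the irradiated over the untreated adult, 5 were below as a mean over cells. Without the 5 dividing members, 4 were below for E17.5 over E12.5, and 2 were above and 0 below for the irradiated over the untreated adult. Dividing cells defined by at least 2 G2/M UMIs had 21.6% at E12.5 and 20.6% in the adult, and by at least 5 G2/M UMIs 21.1% at E12.5.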
